A study of Mus musculus with 12 samples.

Results

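RNA levels were measured in the normal young aortic valve leaflet, in the 3 control libraries of a series of 12. The members were taken by their genotype label, CTRL, and are called CTRL 1, 2 and 3; the other 9 libraries (ECKO, SMKO and DKO) enter no value given here. The mice were of the strain C57BL/6J;129SvEv and 2 months old. The labels name no allele or Cre transgene for the CTRL mice, and whether they carried unrecombined alleles of the targeted gene is not stated in the labels. The series' design text calls the 3 libraries of a group biological replicates, but no label ties a library to an animal, so the spread between them may be technical in part. Entire leaflets were cut by laser from fixed, frozen and stained sections, and the libraries were built from amplified cDNA with a kit that does not keep the strand. The deposited table lists 41709 genes, of which 14531 had a count in at least 1 control library and 9934 had a count in all 3.

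An aortic valve leaflet is a thin sheet of matrix, clad on both faces by endothelium and populated by interstitial cells, which are fibroblast-like and make the matrix. Its layers are known as the fibrosa, rich in fibrillar collagen, the spongiosa, rich in proteoglycan, and the ventricularis, rich in elastic fibres. Resident macrophages and melanocytes are also known in mouse leaflets. Each value is an average over all of these cells, and a lower level from fewer cells of a type cannot be told apart from less RNA per cell.

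The libraries were shallow and unequal. Total counts were 576910, 561166 and 159857 in CTRL 1, 2 and 3. At least 1 count was seen for 12629, 13023 and 11193 genes, and at the depth of CTRL 3 the expected number was 10878 in CTRL 1 and 10997 in CTRL 2. A gene without a count in any of the 3 libraries can still have had up to 2.31 CPM (counts scaled to library size), which is 3 counts over the pooled 1297933; these limits cover counting error only. The gene targeted elsewhere in the series, Efemp2 (fibulin-4, needed for elastic fibre assembly), had 58, 23 and 9 counts in CTRL 1, 2 and 3, so it was present in every library. Genes of the Y chromosome had 30 counts in CTRL 3 and none in CTRL 1 and 2.

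CTRL 3 stood apart from CTRL 1 and 2 in a pair of transcript classes. The first was the mitochondrial genome, which took 26.7% of counts in CTRL 3, against 10.5% in CTRL 1 and 11.2% in CTRL 2. The other was a set of 9 predicted genes that share sequence with Gm10800, the member with the highest level; they took 8331 of the counts of CTRL 3 (5.21%), against 100 in CTRL 1 (0.0173%) and 798 in CTRL 2 (0.142%). Levels below are in TPM (counts divided by gene length and scaled by the authors to a fixed sum in each library), so these classes lower the TPM of every other gene in CTRL 3. Where that matters, shares are also given of the TPM that remained after both classes were left out.

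The 9 predicted genes were grouped by shared words of 25 bases with Gm10800 (at least 20% of each transcript's words). They read like the major satellite, the repeat that fills the pericentromeric heterochromatin of mouse chromosomes. The stretches below are shown because these genes have the largest ratios between the libraries. They are 120 bases from the GENCODE M21 transcripts (build GRCm38) of Gm10800 (chromosome 2, minus strand), Gm10718 (chromosome 9, plus strand) and Gm10801 (chromosome 2, plus strand), aligned without gaps. Capitals in the first line mark the 115 bases that all 3 share, and capitals in the other lines mark bases identical to Gm10800.
Gm10800: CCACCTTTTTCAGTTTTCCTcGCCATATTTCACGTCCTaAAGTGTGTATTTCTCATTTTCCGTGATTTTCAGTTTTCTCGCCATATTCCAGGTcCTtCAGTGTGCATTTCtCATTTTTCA
Gm10718: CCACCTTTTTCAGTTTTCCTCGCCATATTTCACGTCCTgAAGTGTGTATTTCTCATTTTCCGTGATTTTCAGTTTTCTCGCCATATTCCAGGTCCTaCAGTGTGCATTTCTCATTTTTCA
Gm10801: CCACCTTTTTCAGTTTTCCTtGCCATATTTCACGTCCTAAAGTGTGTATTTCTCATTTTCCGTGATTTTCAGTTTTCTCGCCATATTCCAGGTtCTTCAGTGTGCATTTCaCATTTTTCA
Gm10718 matched Gm10800 at 118 of the 120 bases and Gm10801 at 117. Gm10800 had 51, 463 and 4765 counts in CTRL 1, 2 and 3, Gm10718 had 15, 137 and 1616, and Gm10801 had 4, 30 and 345. All 3 were lowest in CTRL 1 and highest in CTRL 3. With sequences this alike the counting cannot assign a read to one of them with certainty, so the class is best read as a sum. Just outside the group, Gm10715 shared 18.6% and Gm10720 shared 18.3% of their words.

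Mitochondrially encoded genes took the largest share of the leaflet's RNA, with 24.6%, 26.1% and 47.4% of TPM in CTRL 1, 2 and 3. Matrix genes took 10.0%, 10.0% and 7.20%, and cytosolic ribosomal proteins 8.60%, 8.48% and 4.72%. In CTRL 3 the satellite-like genes, at 10.4%, exceeded both. Among the 30 genes with the highest mean TPM, 12 were mitochondrially encoded, 2 were satellite-like, 6 were matrix genes and 2 were ribosomal proteins. The leading gene was mt-Atp6, a subunit of the ATP synthase, with 68645, 77568 and 159032 TPM in CTRL 1, 2 and 3. CTRL 3 was the highest library for mt-Atp6 and for all 13 mitochondrial genes with counts. mt-Co3 and mt-Co2, subunits of cytochrome c oxidase, followed at 43847 and 33879 TPM on average, and mt-Nd1, a subunit of complex I, at 31291 TPM. Only the 13 protein-coding genes of the mitochondrial genome carried counts; its 24 transfer RNA and ribosomal RNA genes were all at 0. Because mt-Atp6 overlaps both mt-Atp8 and mt-Co3, mt-Nd4l overlaps mt-Nd4, and mt-Nd6 lies opposite mt-Nd5, single values of these genes are uncertain, those of mt-Atp6 and mt-Co3 included.

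Mgp is matrix Gla protein, an inhibitor of calcification known from arteries and cartilage. Once the mitochondrial and satellite-like genes were set aside, it had the highest TPM in each of the 3 libraries. Its level was 36533, 40101 and 30957 TPM in CTRL 1, 2 and 3, from 6603, 7231 and 2119 counts. Dcn, decorin, a proteoglycan that binds collagen fibrils, came next in TPM in every library, with 16588, 18129 and 11161 TPM. On counts, which are not divided by gene length, Dcn lay above Mgp in every library, with 10219, 11142 and 2604 counts. The deposited TPM of both genes was lowest in CTRL 3. Once the mitochondrial and satellite-like genes were left out, Mgp was highest there, with 48511, 54513 and 73459 TPM of the remainder. Below these came Igfbp7, a secreted protein of the vessel wall that binds insulin-like growth factors weakly, at 6592 ± 1173 TPM (SD, n = 3), and Cst3, the cysteine protease inhibitor cystatin C, at 6001 ± 951 TPM. Crip1, a small LIM-domain protein, stood at 5759 ± 2026 TPM and Apoe, the lipid carrier apolipoprotein E, at 4503 ± 533 TPM. Apoe was the only gene among the leading 30 outside those 2 classes whose deposited TPM was highest in CTRL 3, at 5065 TPM there against 4440.2 in CTRL 1 and 4004 in CTRL 2.

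**Figure D1:**
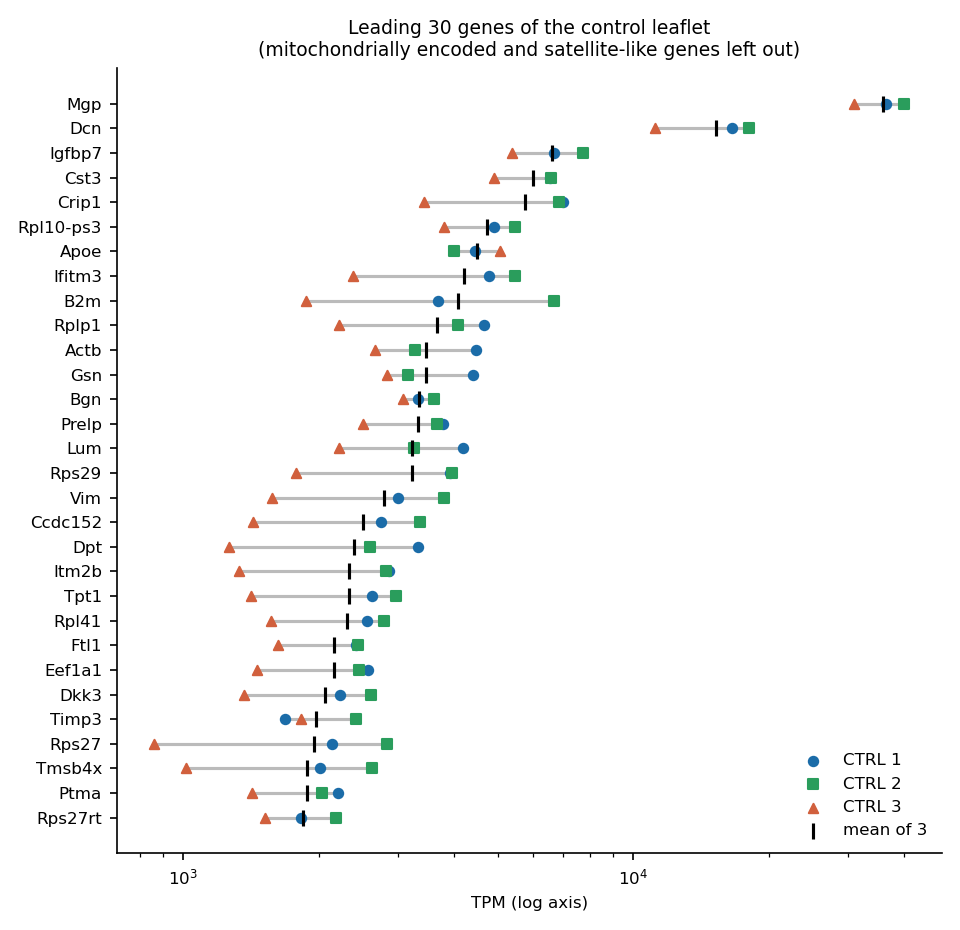
TPM of the 30 leading genes after the mitochondrially encoded and satellite-like genes were left out, on a log axis, with a point for each control library and a tick for the mean. Mgp and Dcn lie apart from the rest in all 3 libraries, and CTRL 3 is the lowest library for 28 of the 30 genes in deposited TPM, which the left-out classes lower in CTRL 3.

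The order below the leaders was not resolved by 3 libraries. Of the 29 neighbouring pairs among the leading 30 genes, 3 held their order in every library, and among the leading 30 without the mitochondrial and satellite-like genes 5 of 29 did. Mgp over Dcn, and Dcn over Igfbp7, were among those 5. Next to Mgp and Dcn, the matrix genes of this group were Cst3, Bgn, Prelp, Lum and Timp3, and 5 genes were ribosomal proteins. Ribosomal protein values carry an uncertainty of their own, since these genes have many near-identical copies. Rpl10-ps3, which is in no list and so not among those 5, had 1105, 1227 and 323 counts in CTRL 1, 2 and 3. The shares given for ribosomal proteins leave it out. Of its 25-base words 96.8% are also in Rpl10, which itself had 9, 4 and 0 counts.

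How concentrated the transcriptome was depended on CTRL 3. The top 115 genes held 50% of all TPM in CTRL 1 and the top 92 in CTRL 2, but 9 genes did so in CTRL 3. After the mitochondrial and satellite-like genes were left out, the numbers were 318, 287 and 218. On mean TPM, 92 genes reached at least 1000 TPM, 870 lay from 100 to 1000, 5877 from 10 to 100, 5844 from 1 to 10, and 1848 had counts but lay below 1. Of the 92, 30 were ribosomal proteins, 13 mitochondrial, 10 matrix genes and 5 satellite-like.

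The matrix was led by small leucine-rich proteoglycans and small secreted inhibitors, and fibrillar collagen stood well below them. The 184 matrix genes listed, counted once each, took 13.3%, 13.6% and 17.1% of the remainder in CTRL 1, 2 and 3. CTRL 3 thus held the lowest share of deposited TPM and the highest of the remainder. Ribosomal proteins took 11.4%, 11.5% and 11.2% of it. Counts were seen for 161 of the 184, in all 3 libraries for 138.

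The small leucine-rich proteoglycans, which coat collagen fibrils and set their spacing, took 4.01%, 4.08% and 4.73% of that remainder. The median of the list's 15 members was 81.2 TPM, against 8.92 TPM for all genes with a count. After Dcn the most abundant were Bgn, biglycan, at 3330.4, 3609.8 and 3085 TPM in CTRL 1, 2 and 3, Prelp, which also binds basement membrane, at 3773, 3672 and 2511, and Lum, lumican, at 4186, 3258 and 2224. Bgn varied least of these 3 in deposited TPM but most between TMM-scaled counts, with a ratio of highest to lowest library of 1.73, against 1.24 for Prelp and 1.21 for Lum. Chad, chondroadherin, a cartilage protein that binds collagen and integrins, had 1465, 627 and 585 TPM from 721, 308 and 109 counts, and CTRL 1 lay above the other 2 libraries. Fmod, fibromodulin, stood at 369 ± 124 TPM.

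The list of cartilage and mineralization genes took the largest share of the remainder of any matrix list, 5.33%, 5.74% and 7.69%. Mgp alone was 93.8% of its mean level. On counts, not divided by gene length, the order was reversed. There the list took 1.64%, 1.64% and 1.59%, against 3.65%, 3.72% and 3.30% for the small leucine-rich proteoglycans. The list without Mgp took 0.239% of TPM on average. Its other leading members were Chad, Prg4, Ahsg and Cilp. Prg4, lubricin, which coats joint surfaces, had 696, 767 and 242 TPM. Cilp, a cartilage intermediate layer protein, had 509.8, 228 and 237 TPM, and Ank, which exports pyrophosphate, a mineralization inhibitor, averaged 86.3 TPM. Ahsg, fetuin-A, a liver-made serum protein that binds mineral, had 336, 148 and 48 counts. A list of 20 other hepatocyte genes had 477, 243 and 30 counts. Most of the counts in CTRL 2 and 3 were Cyp2e1, a cytochrome P450 with 206, 233 and 28 counts, and the other 19 genes had 271, 10 and 2. Their part in the Ahsg value was not tested; Ahsg had 148 and 48 counts in the 2 libraries where those 19 genes had 10 and 2.

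Fibrillar collagens, the tensile fibres of the fibrosa, took 0.360%, 0.258% and 0.347% of the remainder. Col1a2 had 912, 749 and 468 TPM, Col3a1 873, 541 and 423 TPM and Col1a1 667, 366 and 429 TPM in CTRL 1, 2 and 3. All 3 were highest in CTRL 1 in deposited TPM. On the remainder Col1a1 was highest in CTRL 3, with 885, 498 and 1017 TPM. On mean TPM, Mgp stood 50.6 times above Col1a2, a gap that rests in part on the division by gene length. For each count of Mgp there were 0.224, 0.167 and 0.135 counts of Col1a2 in CTRL 1, 2 and 3. Col5a2, a collagen that regulates fibril width, averaged 122 TPM, Col5a1 55.2 and Col11a2 30.4. Col2a1, the main collagen of hyaline cartilage, was the 1 member of 9 without a count.

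Collagen VI, which forms beaded filaments around cells, led the remaining interstitial collagens: Col6a1 averaged 287 ± 131 TPM and Col6a2 175 ± 41.8 TPM (SD, n = 3). The list of 16 took 0.114%, 0.0978% and 0.0979% of the remainder. Basement membrane genes were lower still, with a list median of 12.6 TPM and a share of 0.0699%, 0.0656% and 0.0725%. Lamb2, a laminin chain, averaged 57.0 TPM, Col15a1 54.8, Col4a1 49.1, the linker Nid1 45.7, Col4a2 44.5 and agrin (Agrn) 32.9 TPM. The shares of this list stayed close across the 3 libraries.

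Elastic fibre and microfibril genes took 0.607%, 0.555% and 0.646%, and all 24 had a count. Ltbp4, which binds latent TGF-beta to microfibrils, led with 853, 1033 and 849 TPM. It was followed by the microfibril proteins Mfap5 at 469 ± 79.4 and Mfap4 at 461 ± 151 TPM, by Fbln1 (fibulin-1) at 412 ± 109.8 and by Mfap2 at 339 ± 208 TPM. Fbln5, fibulin-5, needed for elastic fibre assembly, had 347, 298 and 93.6 TPM, with CTRL 3 lowest. Eln, elastin itself, stood at 80.1 ± 25.1 TPM, below each of those 6.

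Matricellular proteins, which bind matrix and cells without bearing load, took 1.10%, 0.984% and 1.19%. Postn, periostin, an interstitial cell product of valves, had 1956, 1946 and 1142 TPM, Sparc, a collagen-binding protein, 1892, 1581 and 1408 TPM, and Thbs1, thrombospondin 1, 1300.0, 1456 and 818 TPM in CTRL 1, 2 and 3. Each of the 3 lay above every fibrillar collagen in each library. Ccn2, a connective tissue growth factor, averaged 697 TPM, Comp, a cartilage oligomeric protein, 587, and Ccn1 237. Ccn1 was uneven, with 102, 249 and 26 counts.

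Hyaluronan genes had the lowest median of the matrix lists, 3.70 TPM over 17 members. Vcan, versican, the large proteoglycan of the spongiosa, had 105, 136 and 42.2 TPM, so decorin lay far above it per transcript length. Tnfaip6, which links hyaluronan chains, averaged 93.8 TPM, the hyaluronan receptor Cd44 91.0, the link protein Hapln1 43.2, and the hyaluronan-degrading Hyal2 and Cemip2 42.1 and 27.5 TPM.

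Among proteases and their inhibitors the inhibitors led. Cst3 alone was 48.1% of the list. Timp3, the matrix-bound inhibitor of metalloproteinases, had 1683, 2416 and 1826 TPM and Timp2 541, 494 and 245 TPM, against 926, 756 and 469 TPM for Mmp2, gelatinase A. In each library Timp3 lay above Mmp2 and Timp2 below it. The lysosomal protease Ctsb averaged 537 ± 159 TPM and Serpinf1, pigment epithelium-derived factor, 367 ± 58.3 TPM.

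**Figure D2:**
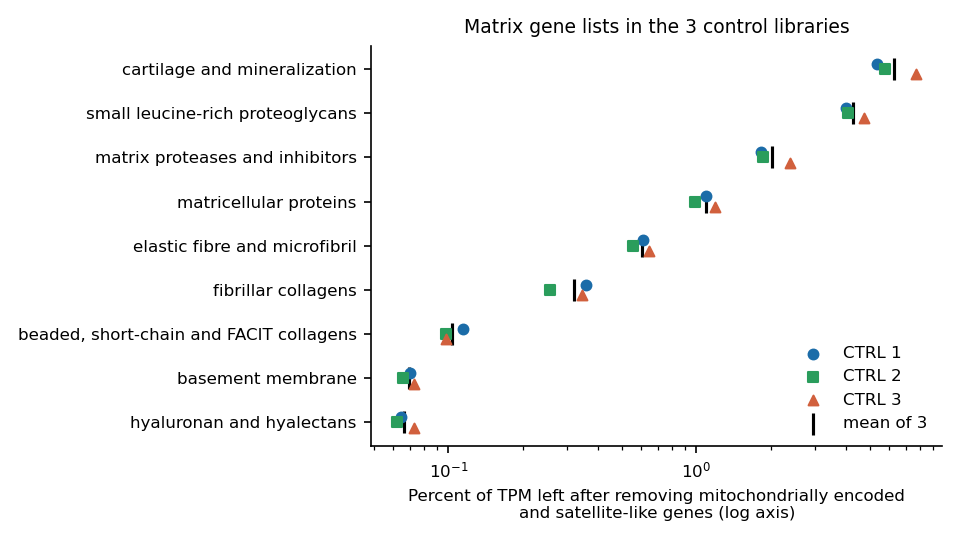
Share of each of the 9 matrix lists in the TPM that remained without mitochondrially encoded and satellite-like genes, in percent on a log axis, with a point for each control library and a tick for the mean. The order of the 6 leading lists is the same in CTRL 1, 2 and 3, from cartilage and mineralization genes (mostly Mgp) down to fibrillar collagens.

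By markers, the leaflet read as interstitial cells with endothelium and macrophages. The interstitial and fibroblast list had the highest median of the 18 cell type lists, 346 TPM over 20 members, and 19 of them had counts in all 3 libraries. In CTRL 3 the erythrocyte list, which is mostly globin, was first, with a median of 218 TPM against 208 for the interstitial list. Dcn, Gsn, Lum, Vim, Dpt and Postn led it. Gsn, gelsolin, which severs actin filaments, had 4406, 3151 and 2841 TPM, Vim, the mesenchymal filament protein vimentin, 2997, 3803 and 1577 TPM, and Dpt, dermatopontin, 3319, 2606 and 1265 TPM. All 3 were lowest in CTRL 3 on this scale. On the remainder Gsn was highest there, with 5850.1, 4284 and 6742 TPM. The 1 member at 0 was Dpep1, a dipeptidase of some fibroblasts.

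Endothelial and macrophage markers stood at nearly the same level. The valve endothelial list had a median of 40.8 TPM and the macrophage list 35.9 TPM; within libraries the endothelial median was 46.8, 42.2 and 25.5 TPM and the macrophage median 43.0, 44.2 and 27.0 TPM in CTRL 1, 2 and 3, so their order differed between libraries. Of 23 endothelial markers 22 had a count in all 3 libraries. Cd34, a surface mucin that fibroblasts also make, led with 449, 464 and 287 TPM, before Eng, the TGF-beta co-receptor endoglin, at 188, 192 and 104 TPM. The junction protein Pecam1 had 97.9, 116 and 93.4 TPM, the secreted Egfl7 109, 133 and 106, the mucin Emcn 100.2, 114 and 62.7 and the adhesion molecule Esam 96.2, 51.6 and 71.6 TPM. All 4 lay below Eng in each library, except Egfl7 in CTRL 3. For each count of Dcn there were 0.0116, 0.0127 and 0.0165 counts of Pecam1 in CTRL 1, 2 and 3.

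All 24 macrophage markers had counts in all 3 libraries. Lyz2, lysozyme, had 519, 627 and 377 TPM, the protease Ctss 322, 428 and 259 TPM, and the complement chains C1qb 317, 365 and 149 and C1qc 261, 313 and 142 TPM. The signalling adaptors Fcer1g and Tyrobp averaged 234 and 193 TPM. CTRL 3 was the lowest library for all 6 in deposited TPM. On the remainder Lyz2 and Ctss were highest there, with 689, 852 and 894 TPM for Lyz2 and 427, 582 and 614 TPM for Ctss, and so was the list's median, at 64.0 TPM. Genes of antigen presentation to helper T cells were also well detected, and H2-Aa lay above every macrophage marker in mean TPM: H2-Aa had 875, 901 and 615 TPM, H2-Ab1 524, 731 and 439, the invariant chain Cd74 376, 379 and 185 and H2-Eb1 257, 341 and 161 TPM. The dendritic cell receptor Flt3 was at 0 in all 3, and the list's median was 14.1 TPM.

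Melanocyte markers were present and uneven. All 15 had a count in at least 1 library and 12 in all 3. Dct, dopachrome tautomerase of the melanin pathway, had 102, 196 and 10 counts (158, 305 and 40.9 TPM) in CTRL 1, 2 and 3, Tyrp1, another melanin enzyme, had 52, 88 and 6 counts, and Mlana, a melanosome protein, had 17, 59 and 3. Gpnmb, which macrophages also make, had 60, 145 and 8 counts, Pmel, the melanosome fibril protein, 18, 58 and 2, and the receptor Ednrb 56, 45 and 4. CTRL 2 was the highest library for 5 of the 6 on TPM, and CTRL 1 for Ednrb.

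Mural and muscle markers were low. Acta2, smooth muscle actin, which activated fibroblasts also make, had 180.3, 149.6 and 103 TPM, Tagln, transgelin, 135, 156 and 22.2 and the myosin light chain Myl9 75.7, 60.7 and 40.0 TPM. The smooth muscle list had a median of 4.30 TPM over 12 members; Cnn1, Actg2 and Myocd were at 0, and Myh11 had 1 count, in CTRL 2. Pericyte markers stood at a median of 17.4 TPM, with the channel subunit Abcc9 at 72.6, 63.8 and 38.8 TPM, Rgs5 at 60.8, 79.0 and 21.8 and Pdgfrb at 63.6, 40.6 and 13.2 TPM, and with Higd1b at 0. The heart muscle list had a median of 1.33 TPM: Tnnt2, cardiac troponin T, had 6, 21 and 1 counts and Actc1, cardiac actin, 4, 4 and 3, and Myh7, Myl7 and Actn2 were at 0.

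Red cell transcripts were the exception among blood markers. The alpha globin Hba-a2 had 162, 56 and 203 counts in CTRL 1, 2 and 3, its copy Hba-a1 had 90, 24 and 118, and the beta globin Hbb-bs had 143, 44 and 123. CTRL 2 was the lowest and CTRL 3 the highest on TPM for each of them, with 998, 346 and 3303 TPM for Hba-a2. The alpha globins are near-identical, so their split is uncertain. Alas2, an enzyme of haem synthesis in red cell precursors, had 2, 1 and 0 counts, and the membrane gene Slc4a1 was at 0. The list's median of 126 TPM over its 7 measured members therefore rests on globin.

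Other blood markers had few counts, and markers of neighbouring tissues were mixed. In the lymphocyte list 7 of 15 were at 0, among them Cd3e, Cd3d, Cd3g, Trac, Cd79a and Ighm, and the list summed to 14, 6 and 4 counts. In the granulocyte and mast cell list 6 of 12 were at 0 (S100a9, Ly6g, Elane, Mpo, Cpa3 and Mcpt4), with 8, 17 and 7 counts in sum. The platelet list was 97.5% Pf4, which macrophages also make, and Ppbp, Gp9 and Tubb1 were at 0. In the adipocyte list 7 of 10 were at 0, including Adipoq, Plin1 and Cidec, while Lpl, a lipase that other cells also make, led it with 154, 27 and 21 counts. In the epicardium list 5 of 10 were at 0, including Wt1, Upk3b and Msln. Of 14 Schwann cell and neuron genes 8 had counts in all 3 libraries, with 121, 133 and 43 in sum. S100b, which chondrocytes also make, averaged 77.4 ± 35.9 TPM, while Th, Dbh and Nefl were at 0. Of 7 lymphatic markers 4 had counts in all 3 libraries, led by Pdpn, a surface mucin that fibroblasts also make, with 21, 28 and 4 counts; Reln and Ccl21a were at 0. Of 10 epithelial markers 7 had a count, led by the desmosome protein Dsp with 60, 85 and 10; Krt5, Krt14 and Cldn4 were at 0. Cycling cell genes had a median of 4.51 TPM: Pcna averaged 75.9 TPM, and the next of the 14, Mcm6, 12.4.

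**Figure D3:**
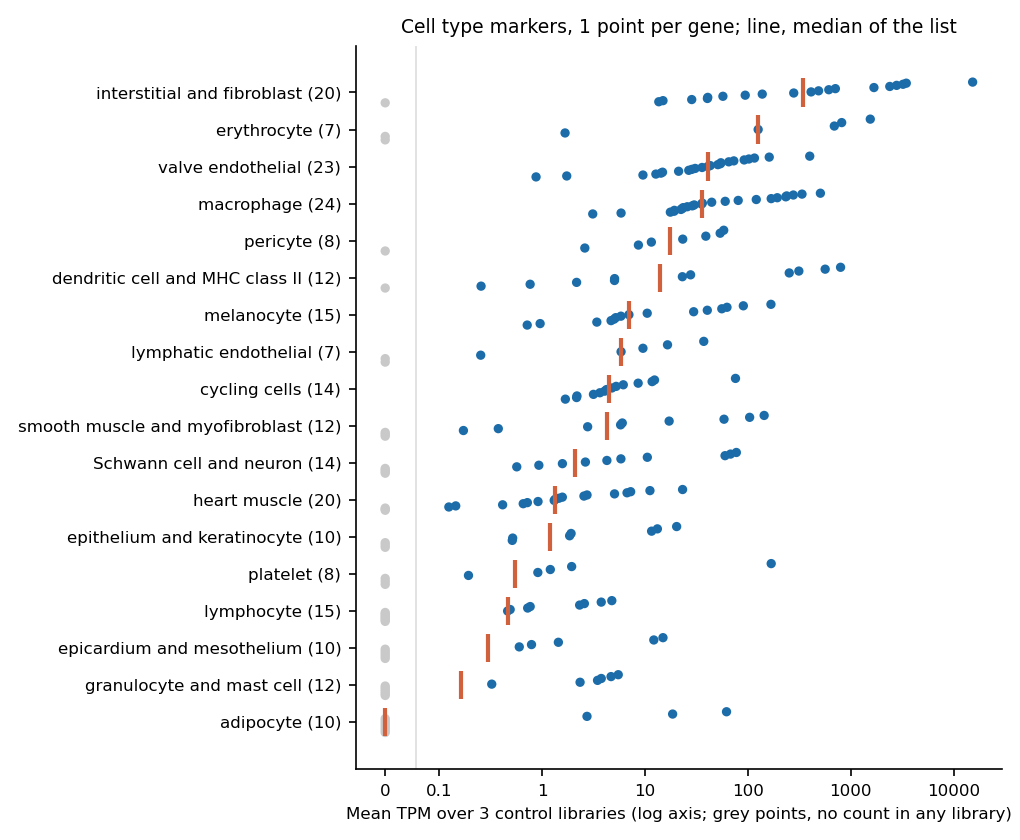
Mean TPM of each marker over the 3 control libraries on a log axis, 1 point per gene, with genes that had no count in any library set at 0 in grey; the line is the median of the list and the number in brackets its measured members. Interstitial and fibroblast markers lie highest, with a median of 346 TPM, and the adipocyte list has its median at 0.

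Transcription factors known from valve development were detected. Tbx20, a T-box factor of the endocardium and the cushions, had 288, 432 and 119 TPM in CTRL 1, 2 and 3, Hand2 235, 186 and 107 TPM and Sox9, the master factor of cartilage and of valve progenitors, 163, 194 and 56.7 TPM. Each was lowest in CTRL 3 in deposited TPM, and Tbx20 and Sox9 also on the remainder. Meox1 averaged 120.2 TPM, Msx1 85.6 and Gata6 79.1 TPM. Of 33 factors listed, 31 had a count and 25 had one in all 3 libraries, with a median of 21.3 TPM. Klf2, a shear-induced factor of endothelium, was higher than any of these, at 457, 611 and 429 TPM, with Klf4 at 127, 144 and 118 TPM. Both were lowest in CTRL 3 in deposited TPM but highest there on the remainder, with 606, 831 and 1019 TPM for Klf2 and 168, 195 and 281 TPM for Klf4. In the same list of shear and mechanical response genes, the channel subunit Pkd2 averaged 352 ± 81.8 TPM and the anticoagulant receptor Thbd 237 ± 74.5 TPM.

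In the Wnt pathway, which directs cushion growth and matrix layering, secreted proteins of inhibitor families were the most abundant members. Dkk3, a Dickkopf family protein, had 2232, 2613 and 1363 TPM, Wif1, which traps Wnt ligands, 1019, 1214 and 464, the decoy receptor Sfrp2 746, 721 and 464, and Frzb, of the same family, 326, 273 and 137 TPM. The 4 lay above every ligand and receptor of the list in mean TPM. Ctnnb1, beta-catenin, the pathway's effector, averaged 207 TPM and the receptor Fzd1 144 TPM. Fzd1 had 125, 322 and 31 counts, so CTRL 2 held most of them. The 41 members measured had a median of 16.7 TPM, and 29 had counts in all 3 libraries.

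For TGF-beta and BMP signals, binding proteins and nuclear targets led the lists. After Ltbp4, the TGF-beta list was led by Fstl1, a follistatin-like protein, at 580.2, 646 and 202 TPM. The receptor Tgfbr2 averaged 106 ± 53.1 TPM, Ltbp3 91.3 ± 34.2 and the ligand Tgfb3 89.6 ± 27.1 TPM. In the BMP list, Id3, an early target that blocks helix-loop-helix factors, had 1349, 1328 and 776 TPM and Id1 583, 493 and 482 TPM, with Id2 at 193 and Id4 at 135 TPM on average. The ligand Bmp4 had 122, 207 and 56.8 TPM and the inhibitory Smad6 83.9, 137 and 48.5 TPM, both highest in CTRL 2.

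In the Notch pathway, where human NOTCH1 mutations are a known cause of valve calcification, the target Hes1 had 158, 126 and 43.0 TPM and Heyl, another target, 73.0, 55.1 and 23.8 TPM. Hey1 averaged 41.8 and Hey2 40.7 TPM, the protease Adam10 68.0 and the receptor Notch2 33.3 TPM. The median over 21 members was 14.6 TPM. Among growth factor genes the binding proteins of insulin-like growth factors dominated: Igfbp7 made up 79.0% of the list, Igfbp4 averaged 416 ± 156 TPM and Igfbp5 379 ± 107 TPM, above the ligands Igf2 at 120.4 ± 39.4 and Igf1 at 94.8 ± 50.7 TPM. Vegfb averaged 83.6 TPM.

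Genes of MHC class I and of innate defence were among the most abundant. B2m, the light chain of MHC class I, had 3676, 6680.2 and 1876 TPM in CTRL 1, 2 and 3, with CTRL 2 highest. CTRL 2 was also highest for its heavy chains, with 601, 1007 and 428 TPM for H2-D1 and 531, 744 and 369.9 TPM for H2-K1. Ifitm3, an antiviral membrane protein, had 4778, 5476 and 2379.8 TPM, its close copy Ifitm2 1756, 1875 and 839 and Ifi27l2a 863, 1227 and 448 TPM. Clu, clusterin, an inhibitor of complement, had 841, 1170.2 and 869 TPM and lay above all C1q chains in each library. Ccl19, a chemokine of lymphoid stroma, had 828, 403 and 422 TPM and made up 61.4% of the stromal chemokine list, before Cxcl16 and Cxcl12 at 77.0 and 68.9 TPM.

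The heat shock list had all 12 members in all 3 libraries, led by Hsp90ab1 at 580.5 ± 147 TPM and Hspa8 at 429 ± 112 TPM, while the chaperone Hspb1 stood at 369 ± 68.1 TPM. The endoplasmic reticulum chaperones Calr, Hsp90b1 and P4hb, which fold secreted proteins and collagen, averaged 332, 322 and 270.2 TPM. Of the immediate early genes, which respond within minutes to stimulation, Jund had 322, 324 and 379 TPM, Dusp1 194, 335 and 141, Jun 154, 142 and 90.4 and Egr1 77.7, 208 and 70.4 TPM. CTRL 2 was highest for Dusp1 and Egr1.

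Itgb1, the integrin beta chain that pairs with most collagen receptors, averaged 309 ± 113 TPM and made up 50.9% of the integrin list; Itgav and Itgb5 followed at 54.9 and 49.3 TPM. The mesenchymal cadherin Cdh11 averaged 182 ± 54.2 and Cdh13 176 ± 58.7 TPM. The glycolytic enzymes Pgam1, Ldha, Gapdh and Pkm averaged 241, 193, 172 and 155 TPM. Ftl1, the light chain of the iron store ferritin, had 2427, 2443 and 1622 TPM and Fth1, its heavy chain, 1582, 1984 and 752 TPM. The metallothionein Mt1 had 959, 549 and 926 TPM and Mt2 935, 279 and 751 TPM, and both were lowest in CTRL 2.

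Of the 92 genes at 1000 TPM or more, 19 were in no list. Actb, cytoplasmic actin, stood at 3470.4 ± 919.7 TPM, the membrane protein Itm2b at 2338 ± 875, the translation factor Eef1a1 at 2163 ± 612 and the actin-binding Tmsb4x at 1887 ± 817 TPM. Npy, neuropeptide Y, a transmitter of sympathetic nerves, had 1996, 1826 and 1656 TPM from 331, 302 and 104 counts, while Th and Dbh, the enzymes of noradrenaline synthesis in those nerves, were at 0. Npy RNA was thus high in all 3 libraries. Cytl1, a secreted factor known from cartilage, had 2254, 1683 and 925 TPM, and Ecrg4, a secreted precursor peptide, 1711, 1772 and 789 TPM. The tetraspanin Cd9 averaged 1825 TPM and the galectin Lgals1 1574 TPM. Ccdc152 had 1095, 1335 and 215 counts, but it overlaps Selenop on the opposite strand, and without strand the reads of the 2 genes cannot be told apart.

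The agreement between the 3 libraries was close for CTRL 1 and 2 and looser with CTRL 3. Across 10012 genes with at least 10 counts in sum, Pearson's r of log2(TPM + 1) was 0.910 for CTRL 1 and 2, 0.810 for CTRL 1 and 3, and 0.823 for CTRL 2 and 3, with Spearman's rho of 0.894, 0.792 and 0.796. The genes are not independent replicates and the pairs share libraries, so these are descriptions. With at least 100 counts (2384 genes) r was 0.952, 0.900 and 0.919. Correlation also falls with fewer counts, and CTRL 3 had the smallest total. It was not computed at equal depth, so the part of depth in the gap was not tested. Chi-square per degree of freedom of the counts was 13.7 for CTRL 3 with CTRL 1 and 12.4 for CTRL 3 with CTRL 2, against 2.82 for CTRL 1 with CTRL 2. Every pair thus differed by more than sampling noise. For CTRL 1 and 2, repeat libraries of amplified cDNA from one animal could do so too. CTRL 3 alone had counts for genes of the Y chromosome. In its pairs, a part of sex cannot be told apart from other differences of that library.

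Mitochondrial and satellite-like genes carried much of the chi-square of the pairs with CTRL 3. For the correlation, mitochondrial and ribosomal protein genes were left out instead, and the gap stayed, still at unequal depth. The correlation was not computed without the satellite-like genes. Without the mitochondrial and ribosomal protein genes Pearson's r was still 0.789 for CTRL 3 with CTRL 1 and 0.803 for CTRL 3 with CTRL 2, against 0.900 for CTRL 1 with CTRL 2. Without the mitochondrial genes chi-square per degree of freedom was 10.3 for CTRL 3 with CTRL 1, 9.69 for CTRL 3 with CTRL 2 and 2.75 for CTRL 1 with CTRL 2. Without the satellite-like genes as well it was 2.66 for CTRL 3 with CTRL 1, 3.07 for CTRL 3 with CTRL 2 and 2.69 for CTRL 1 with CTRL 2. This measure grows with depth, so like values in pairs of unlike depth do not show a like spread. The common biological coefficient of variation of edgeR, which measures spread beyond counting noise, was 0.214 over 5715 genes and 0.208 without the mitochondrial genes. It was 0.167 over 6796 genes without CTRL 3, 0.226 over 4348 without CTRL 2 and 0.258 over 4274 without CTRL 1. The count filter was applied anew each time, so these values are over different genes.

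**Figure D4:**
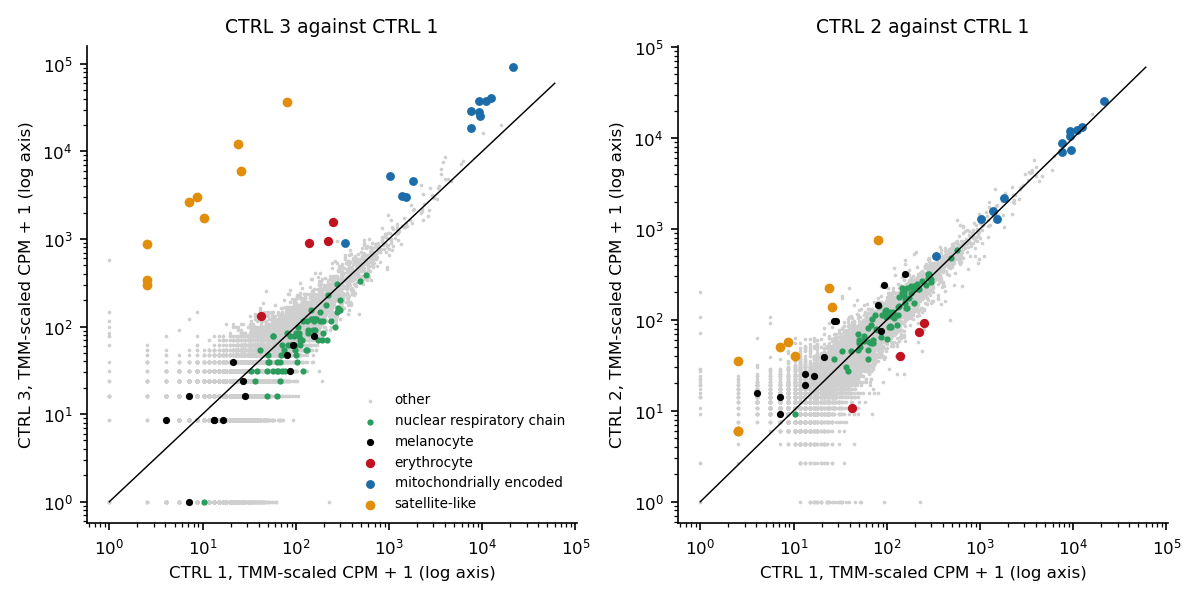
Levels of 10012 genes in CTRL 3 against CTRL 1 and in CTRL 2 against CTRL 1, as TMM-scaled CPM + 1 on log axes; the line marks equal levels. Satellite-like and mitochondrial genes lie above the line in CTRL 3, globins lie above it in CTRL 3 and below it in CTRL 2, and most other genes follow the line.

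For the comparison gene by gene, counts were scaled by TMM, which aims to take out differences in composition, and each gene's highest library was set over its lowest. Among 2382 genes with at least 100 counts in sum and 1 in each library the median ratio was 1.48; 53.0% lay under 1.5, 17.5% at 2 or more and 1.93% at 4 or more. The share at 2 or more was 21.7% for genes with 100 to 200 counts, 13.5% from 200 to 500 and 5.09% from 500 to 1000. It was 21.1% for genes with 1000 counts or more. Of the 418 genes at 2 or more, CTRL 3 was the lowest library for 262 and CTRL 2 the highest for 175. These ratios include counting error, which is largest in CTRL 3, with 159857 counts in total. The steadiest genes included Foxo1, a factor downstream of insulin signalling, with 98, 93 and 20 counts and a ratio of 1.01 (95% interval 0.751 to 1.35), the collagen prolyl hydroxylase subunit P4hb with a ratio of 1.02 (95% interval 0.857 to 1.21), and Tgfb3 with 1.02 (95% interval 0.612 to 1.63). Those intervals cover counting error only and show that a gene this shallow can be placed only roughly. Among abundant genes Eef1a1 had a ratio of 1.06 (95% interval 0.936 to 1.19) and Crip1 1.14 (95% interval 1.00 to 1.30). The 10 largest ratios belonged to 7 satellite-like genes and to the globins Hba-a1, Hba-a2 and Hbb-bs, and among the globins Hba-a1 was largest, with 22.8 (95% interval 14.6 to 37.0).

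Set against the mean of the other 2 libraries, CTRL 3 was more than 2-fold lower for 14 of 54 nuclear genes of the respiratory chain with at least 100 counts, where 8.26% of all 2384 such genes were. In the mitochondrial genome it was more than 2-fold higher for 13 of 13, where 2.39% of all genes were. So nuclear and mitochondrial genes of the same complexes lay on opposite sides in CTRL 3. Cox8a, a nuclear subunit of cytochrome c oxidase, had 485, 475 and 328 TMM-scaled CPM in CTRL 1, 2 and 3, and Cox6b1 263, 241 and 99.0, while mt-Co1 of the same complex had 10876, 12228 and 38062. The median shift of CTRL 3, as log2 of its level over the mean of the other 2, was -0.68 for 75 nuclear genes of the chain and 1.59 for the mitochondrial genes, against -0.12 for all 10012 genes. Ribosomal proteins did not share the drop: their median shift was -0.03 over 82 genes and 3 of 81 were more than 2-fold lower.

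Melanocyte genes went with CTRL 2. Of the 4 with at least 100 counts (Dct, Tyrp1, Gpnmb and Ednrb), CTRL 2 was more than 2-fold higher for 3, where 1.51% of all genes were. CTRL 3 was more than 2-fold lower for all 4, where 8.26% of all genes were, against a mean that includes CTRL 2. The mean used for CTRL 2 likewise includes CTRL 3. Gpnmb, for example, had 92.7, 238 and 60.9 TMM-scaled CPM in CTRL 1, 2 and 3. The CTRL 3 values rest on few counts, such as 10 for Dct and 8 for Gpnmb. The median shift over 13 markers was 1.30 in CTRL 2, -1.34 in CTRL 3 and -0.38 in CTRL 1. Dct had 158, 322 and 76.2 TMM-scaled CPM in CTRL 1, 2 and 3. Globins moved differently: CTRL 2 was more than 2-fold lower for all 3 with at least 100 counts, where 1.93% of all genes were. CTRL 3 was more than 2-fold higher for all 3, where 2.39% of all genes were.

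CTRL 1 differed least by these counts. It was more than 2-fold lower for 3 of 10 immediate early genes, Egr1, Nr4a1 and Zfp36, where 1.51% of all genes were, and its median shift over 22 members was -0.69. Egr1 had 158, 448 and 267 TMM-scaled CPM in CTRL 1, 2 and 3. CTRL 1 was more than 2-fold higher for 1 of 9 small leucine-rich proteoglycans, the asporin gene Aspn, where 1.09% of all genes were. Aspn had 82, 31 and 7 counts. Single members were higher in other lists too, such as 1 of 12 matricellular, 1 of 25 protease and inhibitor, 1 of 16 growth factor and 1 of 7 lipid genes. CTRL 1 was also more than 2-fold lower for 8 of 13 mitochondrial genes and for the 3 globins, against a mean that includes CTRL 3.

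In the interstitial and fibroblast list none of the 15 members with at least 100 counts lay more than 2-fold from the other libraries. Of all genes 1.09% to 8.26% did so per library and direction, so none of 15 in a single library and direction is near that background. The share of all genes over all libraries and directions together was not computed. Over its 19 members with at least 10 counts, 1 was more than 2-fold lower in CTRL 2 and 1 in CTRL 3, and the median shifts in CTRL 1, 2 and 3 were 0.04, 0.01 and 0.09. For the valve endothelial list they were -0.08, -0.14 and 0.19, and for the small leucine-rich proteoglycans 0.14, 0.01 and -0.10. Macrophage markers were lower in CTRL 1, at -0.40, and fibrillar collagens lower in CTRL 2, at -0.50. In CTRL 3, 7 of 41 lists had a median shift below -0.5: melanocyte, cycling cell, stromal chemokine, MHC class I, nuclear respiratory chain, valve and cardiac transcription factor, and smooth muscle genes. Iron and metal genes lay on the other side, at 0.68. These medians include members with few counts in CTRL 3. With at least 100 counts the shift in CTRL 3 was -0.06 over 5 MHC class I genes and -0.43 over 13 transcription factors. For 6 iron and metal genes it was 0.17. Below -0.5 there were melanocyte genes (-1.42 over 4) and nuclear respiratory chain genes (-0.72 over 54). So were stromal chemokine (-0.53 over 5) and smooth muscle genes (-0.84 over 2). With scaling by library totals alone the shift of all genes in CTRL 3 was -0.55, and the small positive shifts of the interstitial, endothelial and collagen lists in CTRL 3 turned negative with it.

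**Figure D5:**
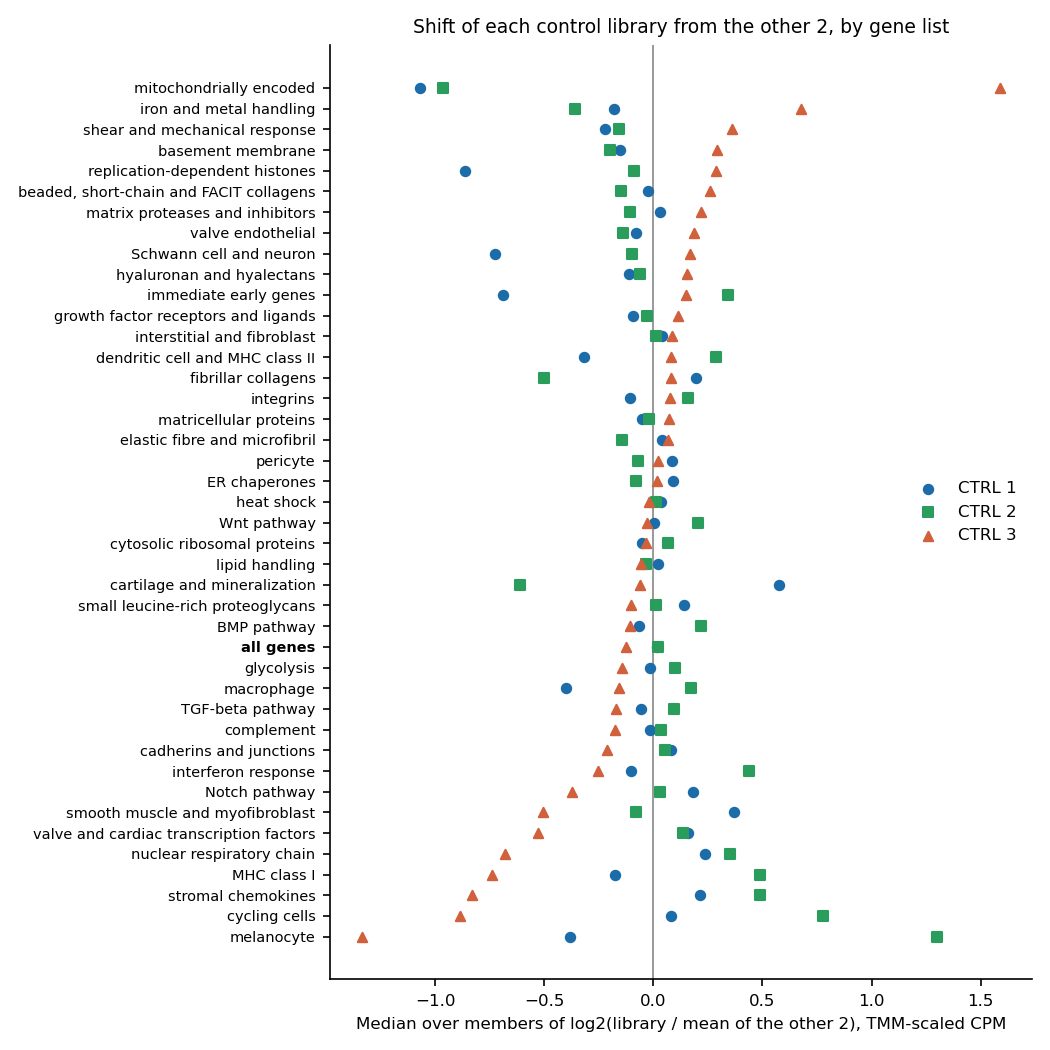
Median over the members of each list of log2(level in a library over the mean of the other 2), on TMM-scaled CPM, with a point for each control library; all genes with at least 10 counts are in bold. CTRL 3 is highest for mitochondrially encoded genes and lowest for melanocyte genes, CTRL 2 is highest for melanocyte genes, and the interstitial and fibroblast list lies near 0 in all 3.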

How the data were processed

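The members are the 3 control libraries of 1 deposited table; they and the gene lists were chosen with earlier results of these data known. The deposited table holds whole counts per gene made by the authors. It also holds TPM computed by the authors, per the file headers. The build was GRCm39, per the submitters' processing notes; for the aligner, counter, annotation and strand setting the sources used here give nothing. No value was tested between groups.

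Levels are the deposited TPM, with mean ± SD (n = 3). Agreement used log2(TPM + 1) over genes with at least 10 counts in sum. Ratios used CPM scaled by TMM in edgeR 4.0.16 (R 4.3.3), over genes with at least 100 counts, with exact Clopper-Pearson 95% intervals that cover counting error only; amplified reads are not independent molecules. The limit for a count of 0 is 3 counts. The edgeR dispersion step was tested on simulated data. Tables were computed in Python 3.11.15 with pandas 2.3.3 and SciPy 1.17.1. Alternatives were other scalings (DESeq2 1.42.0 size factors, library totals), other pseudocounts and filters, leaving out a library, and leaving out transcript classes.

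Named genes were the 30 with the highest mean TPM, up to 6 leading members of each of 51 lists, cell type markers without a count, the 10 highest and 10 lowest ratios, and the 15 leading genes in no list. Aspn, Col2a1, Cyp2e1, Eln, Gm10715, Gm10720, Myh11, Rpl10, Selenop, Zfp36, mt-Nd5 and the genes of the closing section were chosen after their values were seen. Of 328 named genes, 35 share an exon with another protein-coding gene, and reads of such pairs cannot be told apart without strand. Col21a1, Ahsp, Hbb-b1, Hbb-b2, Sfrp3, Nrg1, Ddit3 and Aldoa were not analysed here.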

Additional observations from a re-analysis of the deposited data

How the results depend on the processing

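No paired analysis was possible because the values come from no test between groups. The 46 genes that held 50% of TPM on the mean became 25 to 104 with 1 library left out, 231 without mitochondrial genes and 391 on counts. Without the satellite-like genes as well, an alternative chosen after seeing the data, they were 281, and the largest chi-square per degree of freedom was 3.07 in place of 13.7. The lowest Pearson's r of 0.810 was 0.694 with a pseudocount of 0.1, 0.890 with a pseudocount of 10 and 0.900 with at least 100 counts. The 12282 genes detected on average became 8099 at a minimum of 5 counts. The coefficient of variation of 0.214 was 0.167 to 0.258 with 1 library left out and 0.263 without a filter. With scaling by library totals alone, genes with a ratio of highest to lowest library of 2 or more numbered 759 in place of 418, and lists below -0.5 in CTRL 3 numbered 16 in place of 7. With only markers of at least 10 counts, 3 of the 4 leading cell type lists stayed among the first 4. The cause was not tested beyond what each setting leaves out. The depth of CTRL 3 limits low genes, since a gene without a count there can reach 18.8 CPM.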

Other observations

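The genes below were chosen after their values were seen, and their counts are given as descriptions. Of 17 genes of the circadian clock looked at, some set CTRL 1 apart from CTRL 2 and 3 and others did not. Dbp, an output factor of the clock, had 0, 122 and 19 counts in CTRL 1, 2 and 3, which is 0, 200.3 and 145 TMM-scaled CPM. Per3, a period gene, had 4.63, 107 and 91.4 TMM-scaled CPM, and Nr1d1, a repressor of the clock's activating arm, had 43.3, 143 and 183. All 3 were lowest in CTRL 1. Arntl, of the activating arm, lay the other way, with 68.0, 8.21 and 7.62 TMM-scaled CPM from 44, 5 and 1 counts, and Npas2 had 19, 0 and 0 and Nfil3 20, 6 and 1 counts. Other clock genes set CTRL 2 apart instead: Per2 had 3.09, 62.4 and 7.62 TMM-scaled CPM, Bhlhe41 38.6, 220.0 and 68.6 and Bhlhe40 91.2, 153 and 76.2, and Ciart had 1, 9 and 0 counts. Per1 had 75.7, 100.2 and 107 TMM-scaled CPM, and Cry1 had 5, 4 and 0 and Clock 38, 28 and 15 counts. The time of day at which the valves were taken is not given in the sources used here, and its part was not tested.

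CTRL 1 also held transcripts known from tissues outside the valve. Scgb1a1, secretoglobin of airway secretory cells, had 147, 0 and 0 counts in CTRL 1, 2 and 3, which is 1054 TPM in CTRL 1. All 7 airway secretory genes listed had a count in CTRL 1, with 209 counts in sum, against 2 counts in CTRL 2 and 1 in CTRL 3. The hepatocyte gene Alb (albumin) had 34, 0 and 0 counts and Ttr (transthyretin) 60, 0 and 1, and both were high only in CTRL 1 among the 3 libraries. Cyp2e1, listed with the hepatocyte genes, differed from them with 206, 233 and 28 counts, present in every library. Of 7 alveolar genes, none had a count in CTRL 1 or 2 and 1 had a count in CTRL 3. In all, 11 genes with at least 60 counts in sum had none in one of the libraries.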
